A study of Arabidopsis thaliana with 12 samples.

Results

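Whole seedlings of Arabidopsis thaliana held in shade at 20 °C were compared with seedlings held in white light at the same temperature, across all genes. The comparison used the 3 libraries of each of these groups, 6 of the 12 libraries of the study, and it was described for 21316 of 33602 listed genes. These were the genes with a log2 value of at least 0 in at least 3 of the 12 libraries. Both groups were wild type plants of the accession Columbia 0. Their seeds had been stratified in the cold and the seedlings raised at 22 °C in white light, whose photon flux was 100 µmol m-2 s-1 and whose ratio of red to far-red was 1.1. At 3 days of age one group was given shade at 20 °C and the other white light at 20 °C, both for the 10 h photoperiod of day 4, and both were collected when that day ended. The intensity and the red to far-red ratio of the shade are not given in the sources used here, so colour and amount of light cannot be told apart. The remaining 6 libraries, from shade and white light at 28 °C, entered the estimate of the spread and a closing comparison of the shade effect at both temperatures. Polyadenylated RNA of whole seedlings was sequenced as read pairs on an Illumina instrument.

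Plants sense neighbours through phytochromes, red and far-red photoreceptors that light filtered by leaves converts to their inactive form. Inactive phytochrome B no longer restrains the phytochrome-interacting factors (PIFs), bHLH transcription factors that switch on auxin synthesis and elongation genes in the stem. The same response holds its own brakes, among them HFR1 and PAR1, which bind PIFs and keep them off DNA. Shade also lowers the light available for photosynthesis and the blue and ultraviolet light that drives flavonoid synthesis.

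PIFs bind the G-box, CACGTG, and the related PBE-box, CATGTG. The stretches below show these letters, in capitals on either strand, within 500 bases before the RefSeq start of genes that the results turn on. All were read 5′ to 3′ along the gene from the TAIR10.1 assembly, and each shows 1 kind of motif, with up to 40 bases on both sides of its copy nearest the start. For ASN1, a gene repressed by sugar, the capitals mark TATCCA, an element of sugar-regulated promoters.
YUC8: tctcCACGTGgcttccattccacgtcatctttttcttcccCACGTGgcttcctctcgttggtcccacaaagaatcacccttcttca
IAA19: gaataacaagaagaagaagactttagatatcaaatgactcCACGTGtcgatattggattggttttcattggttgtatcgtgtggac
HFR1: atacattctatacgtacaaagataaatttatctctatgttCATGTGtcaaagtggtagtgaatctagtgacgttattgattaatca
SAUR22: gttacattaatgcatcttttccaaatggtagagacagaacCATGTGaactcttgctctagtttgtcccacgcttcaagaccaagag
TIP2;1: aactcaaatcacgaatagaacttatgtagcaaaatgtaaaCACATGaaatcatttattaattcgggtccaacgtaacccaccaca
PIP2;7: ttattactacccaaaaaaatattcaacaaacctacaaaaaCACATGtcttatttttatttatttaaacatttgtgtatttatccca
ASN1: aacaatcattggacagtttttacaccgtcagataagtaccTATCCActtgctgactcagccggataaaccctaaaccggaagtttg
CHS: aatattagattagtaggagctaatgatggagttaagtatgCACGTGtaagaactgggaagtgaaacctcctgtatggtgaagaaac
DFR: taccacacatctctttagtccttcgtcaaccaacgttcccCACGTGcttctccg

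The first 7 of these genes were higher in shade and the last 2, of flavonoid synthesis, were lower. The YUC8 stretch, at chr4:14192081-14192166 on the plus strand, begins 488 bases before the gene start and holds a pair of G-boxes; a PBE-box outside this stretch lies nearer, 53 bases before the start. The IAA19 stretch lies at chr3:5263891-5263976 on the plus strand, the HFR1 stretch at chr1:468248-468333 on the minus strand and the SAUR22 stretch at chr5:5975147-5975232 on the minus strand. Those of the aquaporins lie at chr3:5505275-5505359 on the plus strand for TIP2;1 and chr4:16708027-16708112 on the plus strand for PIP2;7. The ASN1 stretch, at chr3:17441487-17441572 on the minus strand, overlaps an annotated neighbour, AT3G47341, while the other 8 touch no other annotated gene. The CHS stretch lies at chr5:4488203-4488288 on the plus strand and the DFR stretch at chr5:17166033-17166086 on the minus strand.

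Over all 20461 protein-coding tested genes with such a window, 10.2% held a G-box and 21.3% a PBE-box. Among the 302 that rose at least 2-fold the shares were 8.28% and 33.8%, and among the 141 that fell at least 2-fold they were 14.9% and 27.7%. For all 1131 risen genes with a window they were 9.28% and 27.3%, and for all 554 fallen genes 13.4% and 21.1%. The element TATCCA was in 30.1% of the windows of genes that rose at least 2-fold and in 14.9% of those that fell, against 25.9% of all. It was in 50% of 16 low-energy windows, a list that rose, but also in 45% of light-harvesting and 44% of photosystem windows, lists that fell, and it was not found in the SEN1 window. The PBE-box was in 53.6% of 69 SAUR windows and 35.3% of 17 aquaporin windows. The G-box was in 50% of 6 anthocyanin, 28% of 25 photosystem and 25% of 20 light-harvesting windows. It was in 4.35% of the SAUR and 0% of the aquaporin windows. Of 11 early shade windows 9.09% held a G-box and 36.4% a PBE-box. The auxin element TGTCTC was in 19.9% of risen and 25.5% of fallen windows at this fold, against 21.4% of all. Likewise the evening element AAAATATCT was in 5.96% and 6.38%, against 4.48%, the I-box GATAAG in 29.5% and 20.6%, against 22.6%, and the brassinosteroid element CGTGTG in 9.27% and 5.67%, against 9.42%. The core ACGT, which lies inside the G-box, was in 65.2% and 66.7%, against 64.6%. By list the I-box was in 68.8% of the 16 low-energy and 47.1% of the 17 aquaporin windows. It was in 30% of light-harvesting, 15.4% of 13 starch and 0% of 6 anthocyanin windows. Both strands were read, and these shares describe letters, not binding. No PBE-box was found in this window of PIL1, IAA29, PHYA, ST2A or XTH4, which rose in shade.

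The shade libraries held 4102183 to 4466280 reads in genes and the white light libraries 3500325 to 4481869, so 1 CPM (a gene's reads relative to the total of its library) was 3.5 to 4.48 reads. Along the first principal component of the 6 libraries, with 30.9% of the variance, shade lay between 37.6 and 52.6 and white light between -45.8 and -40.03. Ribosomal RNA took 0.618 to 0.951% of the reads in shade and 0.557 to 1.94% in white light, where replicate 2 was the highest. Of 12 root markers none passed in either direction, with a median log2 change of 0.00. Of 11 stomatal lineage markers none passed, at a median of -0.39. Among these 11, 5 were below all white light libraries, as were 2035 of all 21316 tested genes. Seed storage genes took 0.00954 ± 0.0133% of the reads in shade and 0.00176 ± 0.000915% in white light (SD, n = 3 each), with 0 of 9 called. In whole seedlings, fewer cells of a type and less RNA per cell cannot be told apart. The labels do not say whether replicates came from separate cultures, so p-values measure the spread between these samples.

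Shade raised 1158 genes and lowered 566 by limma at a Benjamini-Hochberg adjusted p under 0.05, which is 5.43% and 2.66% of the genes tested and 8.09% together. The risen genes had a median log2 change of 0.71 and the fallen genes of -0.64, while the median over all tested genes was 0.05. Changes of at least 2-fold were found for 313 risen and 145 fallen genes, and changes of at least 4-fold for 77 and 53. Together the risen genes gained 5.33% of all reads and the fallen genes lost 4.34%. Of the 1724 genes called, 1689 had no overlap between the groups. Over all 21316 tested genes, 3266 lay above and 2035 below every white light library. Counts of list members below are to be read against these counts and shares. The rises were 67.2% of the calls, but 55.2% with trimmed mean scaling, 52.9% under quantile normalization and 52.1% with totals that leave out photosynthesis and organelle genes. The number called was 1113 without shade replicate 3 and 919 with a constant prior variance.

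**Figure D1:**
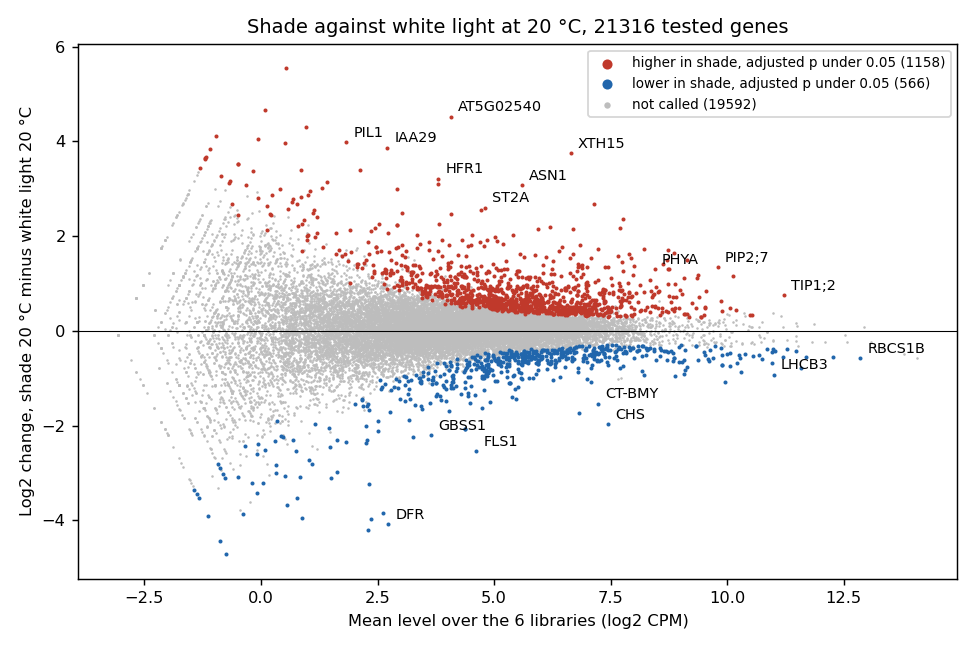
Each point is 1 of the 21316 tested genes, with its mean level over the 6 libraries at 20 °C on the x axis (log2 CPM) and its log2 change, shade minus white light, on the y axis. Red points are the 1158 genes higher in shade, blue points the 566 lower, and grey points the genes not called. DFR, at -4.08, and AT5G02540, at 4.52, are labelled near the lower and upper ends.

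The genes that plants use as early shade regulators were all higher in shade. All 11 tested members of that list were above every white light library, and 9 rose and 0 fell, with a median log2 change of 1.17. PIL1 (AT2G46970), a bHLH factor that is among the quickest genes to answer shade, had 13.9, 15.7 and 12.7 CPM in shade, against 0.669, 0.473 and 1.43 CPM in white light. Its log2 change of 3.98 ± 0.48 (SE, with 3 libraries a group; limma adjusted p = 1.07e-06) passed. The white light values are a few reads each, so the size of this rise is imprecise. HFR1 (AT1G02340), the brake on PIFs, was at 37.2, 44.3 and 46.6 CPM in shade, against 6.25, 3.55 and 4.0 CPM in white light. Its lowest shade library was above 5 times the highest white light one, and its log2 change was 3.21 ± 0.23 (limma adjusted p = 1.33e-10). PAR1 (AT2G42870), another PIF-binding brake, had 40.3, 28.6 and 44.9 CPM in shade, against 13.4, 18.7 and 18 CPM in white light and a log2 change of 1.17 ± 0.19. Its partner PAR2 (AT3G58850) rose by 1.23 ± 0.28.

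Homeobox factors of HD-ZIP class II rose with them. HB-2 (AT4G16780), a promoter of elongation, had 29.3, 34.6 and 28.5 CPM in shade, against 5.35, 7.81 and 6.0 CPM in white light, a rise of 2.26 ± 0.24 (limma adjusted p = 1.44e-07) with the groups far apart. HAT3 (AT3G60390) rose by 0.90 ± 0.19, HAT1 (AT4G17460) by 0.66 ± 0.15 and HAT2 (AT5G47370) by 0.52 ± 0.16, the smallest of these rises. HB4 (AT2G44910), at 1.37 on the log2 scale, did not pass. FHY1 (AT2G37678), which carries phytochrome A into the nucleus, rose by 0.76 ± 0.21, and its homologue FHL, at 0.63, did not pass.

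Among 10 photoreceptors 2 rose and 0 fell, against 5.43% and 2.66% of all tested genes. PHYA (AT1G09570), the phytochrome that accumulates in darkness and senses far-red light, had 529, 548 and 565 CPM in shade, against 214, 237 and 215 CPM in white light. Its groups were tight and far apart, with a rise of 1.3 ± 0.12 (limma adjusted p = 9.37e-09). PHOT1 (AT3G45780), a blue light receptor for bending towards light, had 395, 375 and 425 CPM in shade, against 216, 228 and 228 CPM in white light, a rise of 0.83 ± 0.09. PHYB (AT2G18790), the main sensor of the red to far-red ratio, had 81.9, 85.8 and 74.1 CPM in shade, against 72.7, 67 and 64.6 CPM in white light. These did not overlap, but its log2 change of 0.24 ± 0.12 did not pass (limma adjusted p = 0.234).

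Of 7 tested PIF transcripts 1 rose, against 5.43% of all tested genes: PIF6 (AT3G62090), at 17.2, 9.91 and 17.1 CPM in shade, against 5.35, 5.44 and 7.43 CPM in white light, with a log2 change of 1.23 ± 0.26. PIF7 (AT5G61270), which acts in shade mainly through its protein, had 13.7, 9.22 and 11.7 CPM in shade, against 15.8, 11.8 and 13.4 CPM in white light, and PIF4 (AT2G43010) had 56.4, 52.6 and 62.2 CPM in shade, against 46, 60.6 and 56 CPM in white light. Both pairs of groups overlapped, at log2 changes of -0.26 ± 0.25 and 0.08 ± 0.14. PIF5 (AT3G59060) at 0.00 ± 0.18 and PIF3 (AT1G09530) at -0.08 ± 0.15 did not pass either. For PIF3, PIF4 and PIF5 the sign depended on the library left out, and for PIF5 also on the scaling.

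Of 10 members of the COP1, SPA and HY5 list, which act downstream of the photoreceptors, 0 rose and 2 fell, against 2.66% of all tested genes. SPA3 (AT3G15354), a cofactor of the COP1 ubiquitin ligase, had 20.8, 26.5 and 16.1 CPM in shade, against 30.6, 33.8 and 34.9 CPM in white light, a log2 change of -0.67 ± 0.20 (limma adjusted p = 0.0339). RUP2 (AT5G23730), which switches the ultraviolet B receptor off, had 2.91, 4.15 and 1.46 CPM in shade, against 4.91, 7.81 and 10.00 CPM in white light, a change of -1.43 ± 0.44. Both calls were lost under 7 of 18 alternatives, among them leaving out shade replicate 3. HY5 (AT5G11260), a bZIP factor that promotes greening, had 7.84, 13.1 and 9.99 CPM in shade, against 10.9, 14 and 17.1 CPM in white light and at -0.44 ± 0.27 did not pass. Of 7 tested B-box factors of that list BBX21 (AT1G75540) rose by 0.46 ± 0.12 and BBX22 (AT1G78600) changed by -0.52 ± 0.15. Neither call held without shade replicate 3. Another, BBX18 (AT2G21320), was named for its size: it had 0.896, 0.461 and 0.731 CPM in shade, against 4.46, 5.21 and 5.71 CPM in white light, a fall of several-fold (-2.72 ± 0.59; limma adjusted p = 0.00297).

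In auxin synthesis 1 of 9 tested genes rose and 0 fell, against 5.43% and 2.66% of all tested genes. YUC8 (AT4G28720), a flavin monooxygenase that makes auxin in the last step of its main pathway, had 23.3, 25.4 and 27.1 CPM in shade, against 8.03, 9.23 and 8.0 CPM in white light. All shade libraries were above 2 times any white light library, and the log2 change was 1.57 ± 0.20 (limma adjusted p = 2.5e-06). The other 8 tested members did not pass, among them TAA1 (AT1G70560), the enzyme of the preceding step, at -0.22 ± 0.18 and YUC2 (AT4G13260) at 0.86 ± 0.49. Enzymes that inactivate auxin rose in 3 of 9 cases and fell in 0. GH3.3 (AT2G23170), which links auxin to amino acids, had 48.8, 42.4 and 48.5 CPM in shade, against 7.81, 13.3 and 14 CPM in white light, a rise of 2.03 ± 0.18 (limma adjusted p = 9.37e-09). GH3.5 (AT4G27260) rose by 0.78 ± 0.11, and GH3.17 (AT1G28130) rose by 0.43 ± 0.13, a call lost under each of the 4 scaling alternatives.

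Auxin-responsive repressors of the Aux/IAA family rose in 8 of 28 cases and fell in 0. Of the 28, 17 were above every white light library, as were 3266 of all 21316 tested genes. IAA29 (AT4G32280) had 28.9, 18.4 and 29 CPM in shade, against 2.45, 1.42 and 1.14 CPM in white light, a rise of 3.86 ± 0.30 (limma adjusted p = 4.64e-10). IAA19 (AT3G15540) had 52.6, 56.5 and 59.2 CPM in shade, against 17.2, 12.1 and 15.4 CPM in white light, a rise of 1.92 ± 0.18 (limma adjusted p = 1.35e-08). In both genes every shade library was more than 3 times every white light library. IAA2 (AT3G23030) rose by 1.21 ± 0.13, IAA7 (AT3G23050) by 1.0 ± 0.11 and IAA3 (AT1G04240) by 1.05 ± 0.17. The median over the 28 was 0.37, against 0.05 over all tested genes.

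Transporters that move auxin between cells rose in 5 of 11 cases and fell in 0, by less than 2-fold each. AUX1 (AT2G38120), an influx carrier, had 195, 203 and 211 CPM in shade, against 111, 123 and 120.0 CPM in white light, a rise of 0.79 ± 0.09. ABCB19 (AT3G28860), an efflux pump, had 277, 353 and 313 CPM in shade, against 177, 182 and 181 CPM in white light, a rise of 0.80 ± 0.10 (limma adjusted p = 2.3e-06). PIN3 (AT1G70940), which directs auxin sideways in the stem, had 172, 149.6 and 187 CPM in shade, against 108, 102 and 99.1 CPM in white light and rose by 0.71 ± 0.11, while PIN7 and PIN4 rose by 0.47 ± 0.10 and 0.43 ± 0.10. None of these 5 genes overlapped between the groups.

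**Figure D2:**
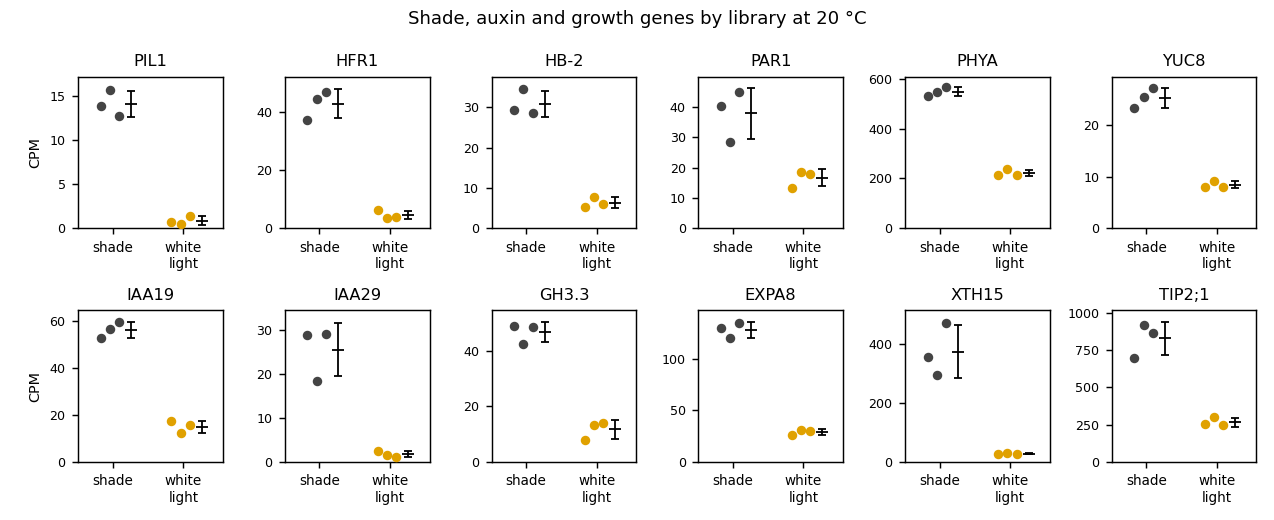
CPM in each library for 12 shade, auxin and growth genes, with shade on the left and white light on the right of each panel; points are the 3 libraries of a group and the bar beside them is the mean with its SD. No panel shows an overlap, and PHYA, for example, lies between 529 and 565 CPM in shade and between 214 and 237 CPM in white light.

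SAUR genes, small auxin-induced genes that promote cell expansion by keeping proton pumps active, rose in 13 of 69 tested cases, and 1 fell. The median over the 69 was 0.85. Of the 69, 31 lay above and 2 below all white light libraries, against 3266 and 2035 of all 21316 tested genes. Their levels were low. SAUR22 (AT5G18050) had 9.4, 8.99 and 7.56 CPM in shade, against 0.892, 0 and 0.571 CPM in white light, a rise of 4.31 ± 0.61 (limma adjusted p = 1.71e-05), and SAUR19 (AT5G18010) had 6.49, 3.69 and 6.34 CPM in shade, against 0.446, 0.947 and 0.571 CPM in white light, a rise of 2.86 ± 0.54. These belong to a cluster of near-identical copies on chromosome 5, SAUR19 to SAUR24, whose reads can be split between them. Outside that cluster SAUR50 (AT4G34760) had 17.2, 12 and 18 CPM in shade, against 4.24, 7.81 and 3.14 CPM in white light, a rise of 1.69 ± 0.33, and SAUR1 (AT4G34770) had 2.69, 4.15 and 5.36 CPM in shade, against 0.892, 0.473 and 0.857 CPM in white light, a rise of 2.26 ± 0.47. SAUR68 (AT1G29490) had no read in white light and was at least 7.25-fold higher in shade if 3 reads in the whole white light group are taken as the floor. The 1 fall was SAUR31 (AT4G00880), at 8.06, 6.46 and 7.07 CPM in shade, against 15.2, 11.4 and 15.4 CPM in white light, and the list had 0 falls without shade replicate 2 or 3 or white light replicate 1 or 3.

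Cell wall genes that loosen or remodel the wall rose in part. Expansins, which loosen walls without cutting them, rose in 7 of 19 alpha-expansin cases and fell in 0. EXPA8 (AT2G40610) had 131, 120.1 and 135 CPM in shade, against 25.7, 31.2 and 30.3 CPM in white light, a rise of 2.14 ± 0.12 (limma adjusted p = 5.32e-13). EXPA3 (AT2G37640) had 131, 134 and 123 CPM in shade, against 47.1, 50.6 and 41.4 CPM in white light, a rise of 1.48 ± 0.14, and EXPA11 (AT1G20190) and EXPA5 (AT3G29030) rose by 1.16 ± 0.20 and 0.95 ± 0.14. The median of the 19 was only 0.13, since the other 12 were spread on both sides of 0.

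In the XTH family, enzymes that cut and rejoin xyloglucan, 9 of 28 members rose and 2 fell, with a median of 0.17. XTH15 (AT4G14130) had 354, 296 and 472 CPM in shade, against 25, 29.8 and 26.9 CPM in white light, a rise of 3.75 ± 0.19 (limma adjusted p = 3.35e-13), with every shade library near 10 times the highest white light library or above. XTH4 (AT2G06850) had 864, 908 and 1084 CPM in shade, against 298, 385 and 333 CPM in white light, a rise of 1.49 ± 0.11, and was among the 5 genes that gained most CPM. XTH7 (AT4G37800) and XTH31 (AT3G44990) went the other way, at -0.72 ± 0.13 and -0.63 ± 0.12. Cellulose synthases of the primary wall rose in 3 of 6 cases by small amounts. CESA6 (AT5G64740) had 412, 479 and 442 CPM in shade, against 314, 368 and 336 CPM in white light, a rise of 0.39 ± 0.09, and CESA1 (AT4G32410) and CESA3 rose by 0.35 ± 0.10 and 0.36 ± 0.10. After quantile normalization 0 of these 6 were called, as with a constant prior variance or without white light replicate 1. Of 3 synthases of the secondary wall none passed.

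Aquaporins, channels that let water into expanding cells, rose in most of the listed cases. Of 17 tested, 13 rose and 0 fell, 15 were above every white light library, and the median was 0.97. They took 1.06 ± 0.0760% of all reads in shade and 0.521 ± 0.0389% in white light (SD, n = 3 each; exact permutation test, 2-sided, p = 0.1, the smallest that 3 against 3 allows). TIP2;1 (AT3G16240), of the vacuole membrane, had 701, 918 and 869 CPM in shade, against 252, 300.3 and 247 CPM in white light, a rise of 1.63 ± 0.11 (limma adjusted p = 2.65e-11). PIP2;7 (AT4G35100), of the plasma membrane, had 1322, 1396 and 1540 CPM in shade, against 509, 584 and 579 CPM in white light, a rise of 1.35 ± 0.11. PIP1B (AT2G45960) had 1507, 1889 and 1631 CPM in shade, against 686, 801 and 761 CPM in white light, and TIP1;2 (AT3G26520) had 2841, 3372 and 3104 CPM in shade, against 1743, 2019 and 1794 CPM in white light. These 4 and XTH4 were the genes that gained most CPM in the comparison. The smallest called rise, of TIP1;1 (AT2G36830), was 0.72 ± 0.10. The members not called were PIP1;4, PIP2;5, PIP2;6 and PIP2;8, and 12 or 13 of the 17 were called under every alternative. The wider set of 29 tested products named aquaporin or intrinsic protein had 13 rises and 1 fall, at a median of 0.61.

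Other families followed by their RefSeq product names, chosen after the results above were known. Products named arabinogalactan, which are wall glycoproteins, rose in 16 of 45 cases and 0 fell. Of all products with tubulin anywhere in their name 12 of 28 rose and 0 fell. Those with pectin lyase in their name rose in 8 of 57 cases, and those named for pectin methylesterases or their inhibitors in 8 of 54. Among products named UDP-glycosyltransferase 5 of 115 rose and 20 fell, and among MATE efflux carriers 1 of 44 rose and 5 fell. Products named WRKY, a family of transcription factors, had 1 rise and 1 fall among 58, and NAC factors had 0 rises and 1 fall among 58. The background shares are 5.43% for rises and 2.66% for falls.

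In the lists of other growth hormones a minority of genes was called. Of 15 brassinosteroid genes 5 rose and 0 fell; 3 rose without shade replicate 2, shade replicate 3 or white light replicate 1, and 2 with a constant prior variance. CPD (AT5G05690), an enzyme of brassinosteroid synthesis, had 190.1, 144 and 212 CPM in shade, against 92.1, 100.3 and 84.6 CPM in white light, a rise of 0.96 ± 0.12 (limma adjusted p = 1.34e-06). The receptor BRI1 (AT4G39400) had 193, 207 and 214 CPM in shade, against 133, 144 and 128 CPM in white light, a rise of 0.60 ± 0.09, and BIN2, the kinase that the receptor switches off, rose by 0.37 ± 0.09. Of 10 growth bHLH factors 3 rose, HBI1 (AT2G18300) at 97.8, 90.6 and 105 CPM in shade, against 45.7, 49 and 52.3 CPM in white light by 1.0 ± 0.12, and BEE2 and BEE1 by 0.51 ± 0.13 and 0.89 ± 0.27, the last a call lost under 11 of 18 alternatives and BEE2 under 2. Without white light replicate 3 the number that rose was 1.

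In the gibberellin pathway GAI (AT1G14920), a DELLA protein that represses growth until gibberellin removes it, had 65.8, 64.3 and 71.2 CPM in shade, against 33, 29.6 and 25.7 CPM in white light. It rose by 1.19 ± 0.13 (limma adjusted p = 2.03e-07), and RGL1 (AT1G66350) rose by 0.96 ± 0.27, a call lost without shade replicate 2 or 3 or white light replicate 1 or 3. RGA (AT2G01570), the most closely related DELLA, had 111, 119.9 and 94.3 CPM in shade, against 86.8, 87.8 and 84.6 CPM in white light and at 0.32 ± 0.10 did not pass (limma adjusted p = 0.0589), although it did without shade replicate 3 and with the stricter filter. Of 10 genes for making or inactivating gibberellin 1 rose, against 5.43% of all tested genes. It was GA2OX6 (AT1G02400), an inactivating enzyme (0.81 ± 0.25), a call lost under 10 alternatives. CKX5 (AT1G75450), which degrades cytokinin, had 26.6, 24.9 and 26.6 CPM in shade, against 10.7, 13 and 15.1 CPM in white light, a rise of 1.01 ± 0.17. ARR5 (AT3G48100), a cytokinin-induced repressor, rose by 0.92 ± 0.23, a call lost under 5 alternatives, among them leaving out shade replicate 2 or 3 or white light replicate 3, and the other 14 genes of that list did not pass.

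Of 19 ethylene genes 4 rose and 0 fell, though 0 were called with a constant prior variance and 2 without shade replicate 3 or white light replicate 3. EIN3 (AT3G20770), the main ethylene transcription factor, had 200.2, 197 and 235 CPM in shade, against 132, 158 and 175 CPM in white light, a rise of 0.45 ± 0.11, and EIN2 (AT5G03280) and ACO4 rose by 0.37 ± 0.09 and 0.39 ± 0.09. ACS8 (AT4G37770), an ethylene synthesis enzyme at the limit of detection, had 6.05, 1.61 and 2.93 CPM in shade, against 0.892, 0 and 0.571 CPM in white light, a call lost under 11 of 18 alternatives. The abscisic acid list had 1 rise among 11, against 5.43% of all tested genes. It was of ABI2 (AT5G57050), a phosphatase of the pathway, a call lost under 10 alternatives. In the jasmonate list 1 of 16 rose and 3 fell, against 5.43% and 2.66% of all tested genes. The rise was of ST2A (AT5G07010), a sulfotransferase that takes jasmonate derivatives out of the pool, at 68.5, 62.9 and 74.6 CPM in shade, against 9.82, 11.4 and 12.6 CPM in white light. It rose by 2.6 ± 0.21 (limma adjusted p = 1.12e-09). The falls were in synthesis genes: AOC2 (AT3G25770) had 62.7, 52.6 and 45.8 CPM in shade, against 116, 94.9 and 119 CPM in white light, a change of -1.04 ± 0.16, while AOC1 at -0.74 ± 0.23 and LOX2 (AT3G45140) at -2.37 ± 0.71 each lost the call under 7 alternatives. LOX2 was at 35.1 CPM in white light replicate 3, against 6.69 and 5.21 CPM in the other two, and its groups overlapped, with 5.53 CPM in shade replicate 2.

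**Figure D3:**
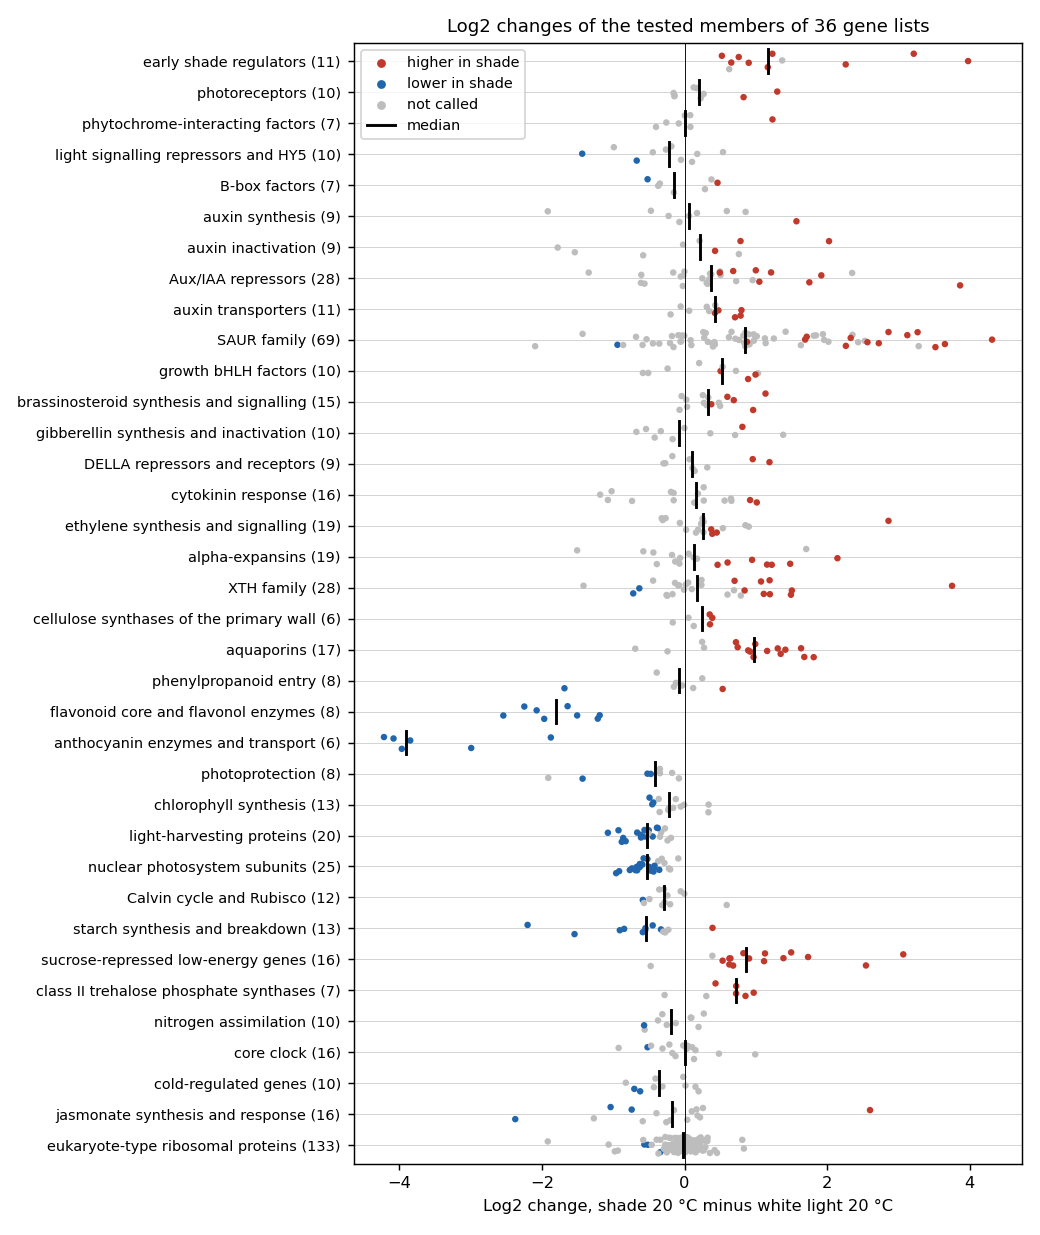
Log2 change, shade minus white light at 20 °C, of every tested member of 36 gene lists, with the number tested in brackets; red points were higher in shade, blue points lower and grey points not called, black bars are list medians, and the vertical scatter within a row carries no value. The early shade regulators, aquaporins and low-energy genes lie to the right with medians of 1.17, 0.97 and 0.86, and the flavonoid and anthocyanin genes to the left with medians of -1.80 and -3.91.

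Flavonoid synthesis had the 2 lowest medians of the 50 lists. All 8 core and flavonol genes and all 6 anthocyanin genes fell and were below every white light library, at medians of -1.80 and -3.91. CHS (AT5G13930), chalcone synthase, the entry enzyme, had 71.4, 115 and 83.1 CPM in shade, against 323, 372 and 341 CPM in white light, a fall of 3.91-fold (-1.97 ± 0.13; limma adjusted p = 2.35e-11). F3H (AT3G51240) had 10.3, 10.1 and 9.75 CPM in shade, against 41.7, 44.3 and 42.3 CPM in white light, but its reads were identical to those of an overlapping antisense locus and cannot be separated. FLS1 (AT5G08640), which makes flavonols, the colourless sunscreens, had 12.8, 15.4 and 5.12 CPM in shade, against 65.6, 52.8 and 59.4 CPM in white light, a change of -2.54 ± 0.27. UGT78D2 and UGT78D1, which attach sugars to flavonols, changed by -1.64 ± 0.19 and -1.19 ± 0.15.

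The anthocyanin branch was close to the detection limit in shade. DFR (AT5G42800), its entry enzyme, had 0.896, 3.69 and 0.975 CPM in shade, against 25, 22.7 and 35.4 CPM in white light, or 4, 16 and 4 reads in shade. The log2 change was -4.08 ± 0.48 (limma adjusted p = 8.8e-07). UGT79B1 (AT5G54060), which adds a sugar to anthocyanins, had 0.448, 4.15 and 0.488 CPM in shade, against 22.3, 19.4 and 21.1 CPM in white light, a change of -4.21 ± 0.60. LDOX (AT4G22880), the next oxidation step, had 0.224, 3.92 and 1.46 CPM in shade, against 19.9, 14.4 and 28 CPM in white light, a change of -3.97 ± 0.75, and lost its call with a constant prior variance. In DFR, UGT79B1 and LDOX shade replicate 2 was the highest of the shade libraries and still below every white light library. GSTF12 (AT5G17220), which helps to carry the pigment to the vacuole, changed by -3.85 ± 0.50 and 5MAT, which acylates it, by -2.99 ± 0.64.

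Their regulators were affected in part. MYB90 (AT1G66390), an activator of anthocyanin genes, had 0.448, 0.922 and 1.46 CPM in shade, against 6.92, 8.28 and 9.71 CPM in white light, a change of -3.1 ± 0.59 (limma adjusted p = 0.000726). LBD37 (AT5G67420), a repressor of anthocyanin genes, had 17.7, 18.7 and 27.1 CPM in shade, against 9.37, 11.4 and 6.0 CPM in white light, a rise of 1.26 ± 0.31 that was lost under 6 alternatives, and MYB4 (AT4G38620), a repressor of phenylpropanoid genes, changed by -0.73 ± 0.22, also lost under 6. The other 11 tested regulators did not pass. In the pathway that feeds flavonoids 1 of 8 genes fell and 1 rose, against 2.66% and 5.43% of all tested genes. The fall was of 4CL3 (AT1G65060), at 7.39, 11.8 and 8.53 CPM in shade, against 30.3, 30.1 and 27.7 CPM in white light (-1.68 ± 0.27). PAL4 (AT3G10340) rose by 0.53 ± 0.14, a call lost under 4 alternatives.

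Photosynthesis genes of the light reactions were lower in shade, with LHCB1.2 (AT1G29910) alone past 2-fold in these lists. Light-harvesting proteins fell in 14 of 20 cases and 19 were below every white light library, at a median of -0.53. They took 3.16 ± 0.352% of reads in shade and 4.32 ± 0.155% in white light (SD, n = 3 each; exact permutation test, 2-sided, p = 0.1, again the smallest possible). LHCB3 (AT5G54270), an antenna protein of photosystem II, had 1422, 1611 and 1428 CPM in shade, against 2590, 2991 and 2897 CPM in white light, a fall of 1.9-fold (-0.93 ± 0.13; limma adjusted p = 7.43e-06). LHCB1.2 had 569.8, 996 and 564 CPM in shade, against 1353, 1388 and 1592 CPM in white light, at -1.07 ± 0.15 the largest change of the family, although the LHCB1 copies are near-identical and can share reads. Shade replicate 2 was the highest shade library in both. Nuclear photosystem subunits fell in 19 of 25 cases, 22 below every white light library, at a median of -0.52. PSAH2 (AT1G52230), of photosystem I, had 348, 339 and 327 CPM in shade, against 637, 641 and 697 CPM in white light, a change of -0.96 ± 0.12 (limma adjusted p = 3.55e-06), and PSAE-1 (AT4G28750) changed by -0.92 ± 0.12. These counts moved with the setting: 7 light-harvesting and 11 photosystem genes fell without the filter, 5 and 8 with a constant prior variance, and 7 and 15 without shade replicate 3. Under the 4 scaling alternatives they were 10 to 15 and 17 to 20.

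Of 12 Calvin cycle and Rubisco genes, which fix carbon, 9 were below every white light library, as were 2035 of all 21316 tested genes. In this list 1 fell, against 2.66% of all. It was RBCS1B (AT5G38430), a small subunit of Rubisco, at 6169, 7137 and 5092 CPM in shade, against 10318, 9463 and 7756 CPM in white light (-0.59 ± 0.18; limma adjusted p = 0.0429). That call was lost under 8 alternatives, among them leaving out shade replicate 1 or 3 or white light replicate 1 or 2. Other settings gave more falls in this list: 7 with voom weights, 5 with the 6 libraries alone, 3 with the replicate block, 3 with totals without photosynthesis and organelle genes, and 2 without shade replicate 2. RBCS1A (AT1G67090) had 11851, 12697 and 11135 CPM in shade, against 16938, 16980 and 16217 CPM in white light, and at -0.49 ± 0.17 did not pass (limma adjusted p = 0.0857), although it did with voom weights, the 6 libraries alone or the replicate block. RBCS1B lost the most CPM of any gene called, followed by THI1 (AT5G54770), which makes the thiazole of vitamin B1, at 2306, 2588 and 2200 CPM in shade, against 4281, 3884 and 4053 CPM in white light (-0.79 ± 0.13). In chlorophyll synthesis 3 of 13 genes fell: CRD1 (AT3G56940) by -0.44 ± 0.09, CHLH (AT5G13630) by -0.45 ± 0.10 and GUN4 by -0.49 ± 0.13. The greening regulator GNC (AT5G56860) changed by -0.71 ± 0.19, and 9 others did not pass; the calls of GUN4 and GNC were each lost under 4 alternatives, among them leaving out shade replicate 3. Of 8 photoprotection genes 3 fell, led by ELIP1 (AT3G22840), which binds free chlorophyll in strong light, at 22.8, 39 and 21.5 CPM in shade, against 65.6, 75.3 and 76.3 CPM in white light (-1.43 ± 0.19), with PSBS (AT1G44575), which triggers heat dissipation, at -0.47 ± 0.10. APX1 (AT1G07890), which removes peroxide with ascorbate, was the only fall among 12 antioxidant genes, at -0.50 ± 0.10, against falls in 2.66% of all tested genes.

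Starch genes fell on both the making and the breaking side. Of 13 tested 8 fell and 1 rose, at a median of -0.54. Below every white light library were 11 of the 13, against 2035 of all 21316 tested genes. GBSS1 (AT1G32900), which makes amylose, had 3.81, 6.92 and 7.07 CPM in shade, against 30.8, 26 and 23.7 CPM in white light, a fall of 4.6-fold (-2.2 ± 0.30; limma adjusted p = 1e-05). CT-BMY (AT4G17090), a beta-amylase of the chloroplast, had 91.8, 94.5 and 77.8 CPM in shade, against 264, 229 and 277 CPM in white light, a change of -1.54 ± 0.17 (limma adjusted p = 2.9e-07). SEX4 (AT3G52180), a glucan phosphatase, and DPE2 (AT2G40840), which uses the maltose released at night, changed by -0.91 ± 0.14 and -0.85 ± 0.10. ADG1 and APL1, subunits of the enzyme that commits carbon to starch, changed by -0.45 ± 0.11 and -0.33 ± 0.10. The rise was of BAM1 (AT3G23920), another beta-amylase, at 0.39 ± 0.11, and this list had 0 rises without shade replicate 1 or white light replicate 1 or 2.

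Genes that sugar represses rose. Of 16 tested members of the low-energy list 14 rose and 0 fell, with a median of 0.86. ASN1 (AT3G47340), which stores nitrogen as asparagine when carbon is scarce, had 161, 80.0 and 211 CPM in shade, against 11.2, 29.6 and 13.7 CPM in white light, a rise of 3.07 ± 0.30 (limma adjusted p = 4.67e-08). BCAT2 (AT1G10070), which starts the breakdown of branched-chain amino acids, had 75, 39 and 89.2 CPM in shade, against 8.26, 12.3 and 12.6 CPM in white light, a rise of 2.54 ± 0.21. SEN1 (AT4G35770), a marker of darkness and senescence, had 288, 194 and 367 CPM in shade, against 77.2, 87.3 and 82.6 CPM in white light, a rise of 1.73 ± 0.15, and DRM2 (AT2G33830), a dormancy-associated gene, had 777, 566 and 786 CPM in shade, against 284, 242 and 224 CPM in white light, a rise of 1.49 ± 0.12. In these 4 genes shade replicate 2 was the lowest of the shade libraries, and it was still above every white light library. Later enzymes of branched-chain amino acid breakdown, IVD, MCCA and MCCB, rose by 0.90 ± 0.14, 1.39 ± 0.16 and 0.68 ± 0.14. The count was 12 without shade replicate 3 and 10 with a constant prior variance. Class II trehalose phosphate synthases, sugar-signalling proteins, rose in 5 of 7 cases, TPS11 (AT2G18700) by 0.97 ± 0.14 and TPS6 (AT1G68020) by 0.85 ± 0.16. In nitrogen assimilation 1 of 10 fell, against 2.66% of all tested genes: GLN1;1 (AT5G37600), a cytosolic glutamine synthetase, at -0.57 ± 0.10. Ribosomal protein genes had 0 rises and 3 falls among 133, at a median of -0.01, against 5.43% and 2.66% of all tested genes. That list had 1 fall without shade replicate 2 or white light replicate 1 or 3.

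**Figure D4:**
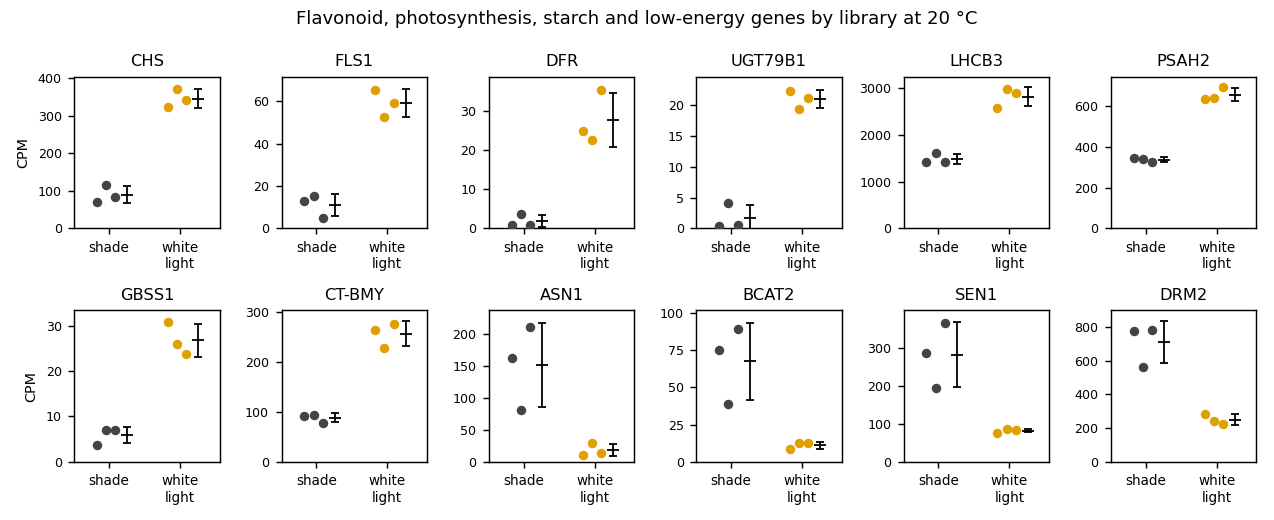
CPM in each library for 12 flavonoid, photosynthesis, starch and low-energy genes, with shade on the left and white light on the right of each panel; points are the 3 libraries of a group and the bar beside them is the mean with its SD. The first 8 genes lie lower in every shade library and the last 4 higher, with ASN1 between 80.0 and 211 CPM in shade and between 11.2 and 29.6 CPM in white light.

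The clock list had 1 fall among 16, against 2.66% of all tested genes: ELF4 (AT2G40080), a component of the evening complex that represses PIF4 and PIF5, at 101, 98.5 and 107 CPM in shade, against 141, 159 and 140.0 CPM in white light (-0.52 ± 0.11; limma adjusted p = 0.00218). In the cold list 2 of 10 fell, KIN1 (AT5G15960) at 46.8, 50.7 and 47.3 CPM in shade, against 77.9, 68.2 and 91.7 CPM in white light and COR6.6 (AT5G15970) at 270.5, 277 and 308 CPM in shade, against 432, 373 and 522 CPM in white light. These are a near-identical tandem pair and can share reads. Without shade replicate 3 the list had 4 falls. In the heat list 1 of 14 rose and 1 fell, against 5.43% and 2.66% of all tested genes. HSP70 (AT3G12580) had 44.8, 20.5 and 25.8 CPM in shade, against 53.1, 54.9 and 48.9 CPM in white light, a change of -0.86 ± 0.18 that was lost without the filter and with a constant prior variance. HSP22.0 (AT4G10250) had 5.6, 0.461 and 0.975 CPM in shade, against 0, 0 and 0 CPM in white light, with most of its reads in shade replicate 1. It was at least 9.77-fold higher in shade if 3 reads in the whole white light group are taken as the floor, and its call was lost with voom weights. Of 13 iron genes 2 fell and 1 rose. The iron storage proteins FER1 (AT5G01600) and FER3 changed by -0.64 ± 0.10 and -0.48 ± 0.12, and the iron reductase FRO3 (AT1G23020) rose by 0.50 ± 0.11. The FER3 call was lost under 5 of 18 alternatives, among them leaving out shade replicate 1 or 3 or white light replicate 3. Of 10 aliphatic glucosinolate genes 2 fell: MYB28 (AT5G61420), their activator, at 9.4, 11.1 and 3.41 CPM in shade, against 21.9, 17.5 and 23.4 CPM in white light (-1.53 ± 0.36), and AT2G31790, a UDP-glycosyltransferase, at -0.64 ± 0.17. Their calls were lost under 3 and 6 of 18 alternatives, and without shade replicate 3 the list had 0 falls and a median of -0.35, against -0.65 with all libraries. Salicylic acid, indole glucosinolate and cell cycle lists had no member called, of 6, 9 and 14.

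Several of the largest changes lie outside the lists, as 375 of the 458 genes with a change of at least 2-fold do. The largest rise among genes whose mean log2 level was at least 1 was of AT5G02540, a Rossmann-fold dehydrogenase by its RefSeq product. It had 90.5, 58.1 and 100.4 CPM in shade, against 1.78, 4.5 and 4.86 CPM in white light, a rise of 4.52 ± 0.27 (limma adjusted p = 3.74e-12). ADS1 (AT1G06080), a delta-9 fatty acid desaturase, had 38.5, 37.1 and 47 CPM in shade, against 3.35, 6.63 and 4.57 CPM in white light, a rise of 3.09 ± 0.26. AT5G35525, of the PLAC8 family, rose by 3.4 ± 0.45, AT5G22580, with a stress-responsive barrel domain, by 3.14 ± 0.44 and CYS2 (AT2G31980), a cystatin, by 3.02 ± 0.81, the last a call lost under 5 alternatives. Among the falls, AT1G28610, a GDSL lipase, had 0.224, 2.31 and 5.12 CPM in shade, against 17.63, 19.2 and 10.3 CPM in white light. AT3G44450, which has no symbol among the names used here, had 1.34, 0.461 and 0.488 CPM in shade, against 7.59, 6.39 and 3.43 CPM in white light. Their log2 changes were -3.24 ± 0.62 and -2.82 ± 0.78, and the AT3G44450 call was lost under 5 of 17 alternatives, among them leaving out shade replicate 2 or 3 or white light replicate 1 or 2.

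The shade effect was then set beside that at 28 °C, which shares no library with it. Shade at 28 °C raised 572 genes and lowered 406. Of the 1158 genes risen at 20 °C 1020 had the same sign at 28 °C, and of the 566 fallen 473 did. The difference between the effects passed for 95 genes, 0.446% of those tested, and 71 of these had been called at 20 °C. In all 71 the effect at 28 °C was smaller in that direction, 50 risen and 21 fallen, and choosing genes by their effect at 20 °C favours that order. PHYA (AT1G09570) rose by 1.3 ± 0.12 at 20 °C and had 0.49 ± 0.12 at 28 °C, a difference of -0.81 ± 0.17 (limma adjusted p = 0.0181). EXPA8 (AT2G40610) had 2.14 ± 0.12 at 20 °C and 0.98 ± 0.12 at 28 °C, a difference of -1.16 ± 0.16. CT-BMY (AT4G17090) had -1.54 ± 0.17 at 20 °C and -0.01 ± 0.17 at 28 °C, a difference of 1.53 ± 0.24 (limma adjusted p = 0.00121). KIN1 changed by -0.70 ± 0.14 at 20 °C and by 1.21 ± 0.14 at 28 °C, in opposite directions. None of the 11 early shade regulators and none of the 28 Aux/IAA genes passed this test of the difference. With only 0.446% of all tested genes passing, that says little about lists of this size. The early shade median was 1.17 at 20 °C and 0.87 at 28 °C, with 9 and 7 rises called. For the Aux/IAA genes it was 0.37 and 0.38, with 8 rises at each temperature. In other lists 5 of 19 ethylene genes and 4 of 10 cold genes passed the test of the difference. The ethylene list had 4 rises and 0 falls at 20 °C, and 1 rise and 7 falls at 28 °C. The cold list had 0 rises and 2 falls at 20 °C, and 7 rises and 0 falls at 28 °C. With a constant prior variance 6 genes passed the test of the difference in all, without the filter 40 and without shade replicate 3 at 20 °C 59.

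**Figure D5:**
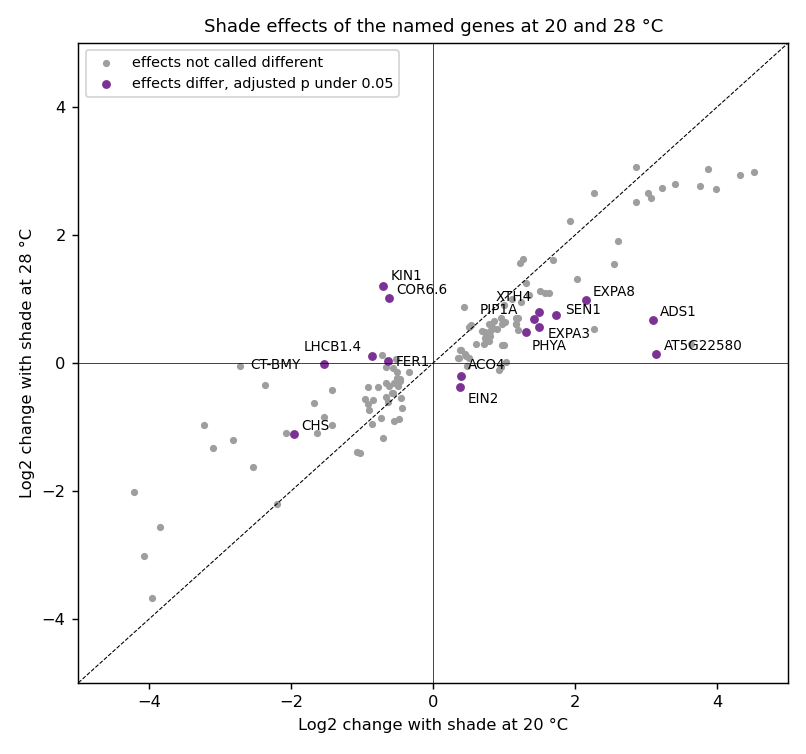
Log2 change with shade at 20 °C (x axis) and at 28 °C (y axis) for the 133 named genes called at 20 °C; the dashed line marks equal effects, and purple points are the 16 genes whose effects differ. KIN1 and COR6.6 lie above 0 at 28 °C and below 0 at 20 °C, AT5G22580 lies near the 28 °C zero line, and ADS1 lies at 0.67 at 28 °C.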

How the data were processed

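Per the labels' protocols, total RNA was extracted from whole seedlings, 3 µg was purified for polyA, and libraries were amplified over 12 PCR cycles. Per the submitters' processing notes, the software was R 4.0.2 with limma, SAMtools 1.3 and TopHat2 2.1.1, and the build TAIR10; their roles and the read counter are not given in the sources used here. The authors deposited log2 values, another unit than counts: log2 CPM as voom writes it, with 0.5 read added and no further scaling. Whole reads were recovered from 100% of them within 0.001 read, and CPM was computed from those reads. The columns are headed ambient where sample titles say 20 °C. Strandedness is not stated, so genes that overlap others, as 29 of 145 named genes do, can share reads. Molecules carried no unique identifiers, so a floor covers counting error alone.

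The 4 group means were fitted over 12 libraries with limma 3.58.1 in R 4.3.3 (lmFit, then eBayes with trend). P-values were adjusted by Benjamini-Hochberg over the 21316 genes with a log2 value of at least 0 in at least 3 libraries and a threshold of 0.05. Genes under the filter held 0.0520% of reads. The fit was tested on simulated data. Log2 changes include the 0.5 read and understate those of low genes. No read-count model was used. Named genes were the 10 largest rises and falls among genes whose mean log2 level was at least 1 and whose groups did not overlap, the 5 that gained and the 5 that lost most CPM, up to 4 members called per list, and 24 fixed key genes; others were named to complete a list. The 50 lists, members and rules were chosen with earlier results of these data known, and the product families after seeing the results. Names came from RefSeq, which matched 32835 identifiers and not 767. RefSeq promoter windows came from TAIR10.1, and the deposited table holds no coordinates. Residual correlations of libraries with the same replicate number were -0.03 to 0.04, so numbers were not used as pairs. Other settings tried were the filter, reads added, scalings, weights, prior variances, the 6 libraries alone, a block for the replicate number, and each library of the comparison left out. Tables and figures used Python 3.11.15, pandas 2.3.3 and matplotlib 3.10.9.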

Additional observations from a re-analysis of the deposited data

Results flagged for a closer look

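For 16 named genes the shade effect at 28 °C differed from that at 20 °C by the limma test of the difference itself (adjusted p under 0.05 over all tested genes, 3 libraries per group). Values below are the effect at 28 °C minus the effect at 20 °C on the log2 scale. No cause of these differences was tested.

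Among genes that rose with shade at 20 °C the difference was negative, a sign that choosing genes by their effect at 20 °C favours. It was -2.42 for ADS1, the fatty acid desaturase, and -3.0 ± 0.62 for AT5G22580. For the wall genes EXPA8, EXPA3 and XTH4 it was -1.16, -0.92 and -0.70, and for the aquaporin PIP1A it was -0.74. The photoreceptor PHYA had -0.81 and the low-energy gene SEN1 -0.99. The ethylene genes EIN2 and ACO4 had -0.75 and -0.59; at 28 °C their shade effects were -0.37 ± 0.09 and -0.21 ± 0.09, on the other side of 0.

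Among genes that fell at 20 °C the difference was positive, which the choice by the effect at 20 °C likewise favours. KIN1 and COR6.6, the near-identical cold-regulated pair, had 1.91 and 1.63 and were higher in shade at 28 °C. The beta-amylase CT-BMY had 1.53, the antenna gene LHCB1.4 0.97, chalcone synthase (CHS) 0.85 and the ferritin FER1 0.66. CHS still had a shade effect of -1.11 ± 0.13 at 28 °C, while that of CT-BMY was -0.01 ± 0.17 and that of FER1 0.03 ± 0.10.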

How the results depend on the processing

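The number of genes called at 20 °C, 1724, was between 1671 and 1809 under stricter filtering, 2 reads added, 4 scalings, voom weights, a robust prior, the 6 libraries alone and the replicate block, which gave 1809 and changed no direction. It was 1172 without the filter, 919 with a constant prior variance, and 1113 to 1508 with each library left out, lowest without shade replicate 3. The 95 genes whose shade effect differed between temperatures became 40 without the filter, 6 with a constant prior variance, 138 with the replicate block, and 59 to 95 with a library left out. The labels do not say whether replicate numbers pair the samples, so the block has no stated basis in the design. Of 133 named genes called, 87 were called in all 18 alternatives and 46 lost the call in at least 1. Losses were most frequent with a constant prior variance (41), without shade replicate 3 (31) and without the filter (29). The causes were not tested. The sign changed for 4 genes that were never called: PIF5, at 0.00, was -0.0357, -0.0664, -0.0511 and -0.0639 under median subtraction, quantile normalization, trimmed mean scaling and totals without photosynthesis and organelle genes, and -0.112 to 0.0869 with a library left out. With a library left out PIF4 lay between -0.0335 and 0.165, PIF3 between -0.176 and 0.0171 and COP1 between -0.138 and 0.0262. List medians changed sign under at least 1 setting for PIF, B-box, auxin synthesis, gibberellin, DELLA, cytokinin, secondary wall cellulose synthase, clock, indole glucosinolate, iron, root, seed storage and ribosomal protein genes. The widest moves were of seed storage (0.97, but -0.28 without shade replicate 3), B-box (-0.15, but 0.32 as the highest with a library left out) and iron genes (-0.47, but 0.017 with the stricter filter). Depth limits genes under about 1 CPM, such as the anthocyanin genes in shade and the SAUR genes in white light, whose fold changes rest on a few reads.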

Other observations

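Stomatal lineage genes, none of them called, included 3 whose log2 changes were below -1 and whose groups did not overlap. BASL, which marks 1 side of the dividing cell, was at 0.896, 1.61 and 0.488 CPM in shade, against 3.35, 2.13 and 2.0 CPM in white light (-1.32 ± 0.71; limma adjusted p = 0.304). POLAR, its partner, was at 1.79, 2.54 and 0.488 CPM in shade, against 3.79, 2.84 and 4.0 CPM in white light (-1.32 ± 0.55; limma adjusted p = 0.152). EPF2, a peptide that limits entry into the lineage, was at 1.34, 1.38 and 2.44 CPM in shade, against 5.13, 3.79 and 2.86 CPM in white light (-1.15 ± 0.64; limma adjusted p = 0.326). These 3 were picked after their values were seen.

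Large families followed by product name are given against background shares of 5.43% rises and 2.66% falls. Cytochrome P450 genes had 10 rises and 10 falls among 182, and leucine-rich repeat proteins 23 and 10 among 315. Products with F-box in their name had 3 and 1 among 184, and pentatricopeptide repeat proteins, which edit and process organelle RNA, 4 and 1 among 261. Products with dehydrin, LEA or late embryogenesis in their name had 0 of 66 called in either direction. Of 94 products named basic helix-loop-helix 12 rose and 0 fell, and of 71 named homeobox 9 rose and 1 fell.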
